A study of Mus musculus with 4 samples.

Results

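Checkpoint-high CD8 T cells were taken from the filtered single-cell matrices of 4 mouse livers by a rule on raw unique molecular identifier (UMI) counts. A cell was kept with at least 500 genes and at most 20% mitochondrial UMIs. It then needed at least 2 UMIs of Cd3d, Cd3e and Cd3g together, at least 1 of Cd8a and Cd8b1, at least 2 of Pdcd1, Lag3 and Havcr2 together, 0 of Cd4, Zbtb16, Cd79a and Cd79b, and at most 1 of the cycle genes Mki67 and Top2a. The rule found 1284 cells of 31290 kept, 81 of 5975 in the NCD library, 459 of 6516 in HFD replicate 1, 614 of 10259 in HFD replicate 2 and 130 of 8540 in the JQF library. The cells were thus chosen by their UMIs of these 14 genes, whose values are given as a description, without a test. In the comparisons between groups within these cells they stayed among the genes tested, and no call on them is given.

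All mice were male C57BL/6J that arrived at 5 weeks of age and had 1 week of acclimatisation. NCD mice ate normal chow throughout, and HFD mice ate a diet with 60% of its energy as fat for 14 weeks. JQF mice ate that diet too and then received the Jiangtang Qingre Formula, made from 7 herbs, by daily gavage for 8 weeks, while NCD and HFD mice received distilled water. Livers were perfused and digested, red cells were lysed and dead cells removed, and NCD and JQF have 1 library each. Every p-value between groups therefore measures the spread between these libraries, with NCD and JQF assumed to vary like the HFD pair.

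PD-1, LAG-3 and TIM-3, the products of Pdcd1, Lag3 and Havcr2, are inhibitory receptors that T cells raise after antigen stimulation. When antigen persists, CD8 T cells that carry several of them enter a state called exhaustion, which depends on the transcription factor TOX and keeps granzymes and chemokines while losing memory genes. A smaller progenitor state within it expresses TCF1, the product of Tcf7, together with the chemokine gene Xcl1. In fatty liver, CD8 T cells with PD-1 are a known resident population.

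The kept cells held 67615639 to 108062769 UMIs a library, and the median checkpoint-high cell held 12601 in NCD, 7002 and 6384.5 in HFD replicates 1 and 2, and 7217 in JQF. The rule asked for a Cd8 UMI, and Cd8a was present in 93.8% to 95.4% of the cells of each library and Cd8b1 in 90.8% to 95.9%. The label was checked against Tox and Gzmk, which the rule did not use. Tox was detected in 98.8%, 98.0%, 98.9% and 93.1% of the cells of NCD, HFD replicate 1, HFD replicate 2 and JQF, and in 64.2%, 52.4%, 51.3% and 51.7% of CD8 T cells with 0 UMIs of the 3 receptors. Gzmk, which encodes granzyme K, was detected in 76.5%, 87.4%, 84.4% and 50% against 16.8%, 38.2%, 30.0% and 26.7%. Both genes were thus also present in many cells without the receptors. No barcode of a checkpoint-high cell occurred in the checkpoint-high cells of another library.

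Transcripts of other cells differed between libraries in these cells. The summed level of 5 endothelial genes was 1066 counts per 1000000 UMIs (CPM) in NCD against 1.93, 44.6 and 5.00 CPM in HFD replicate 1, HFD replicate 2 and JQF. The 7 macrophage and monocyte genes summed to 12.4 CPM in NCD, with Csf1r and Adgre1 at 0, and to 530, 782 and 608 CPM in HFD replicate 1, HFD replicate 2 and JQF. Erythroid genes reached 1697 CPM in HFD replicate 2 alone, from 0.276 to 18.3 CPM elsewhere. Cells with at least 3 UMIs of myeloid, endothelial, erythroid or neutrophil genes numbered 9, 21, 70 and 8, and calls that the results below turn on are also given without them. Below, cells of any other type and cells holding other cells' transcripts mean these alone. No further cell type was screened in this way. B and plasma cell genes summed to 17.4 to 160 CPM, dendritic cell genes to 12.4 to 89.9 and hepatocyte genes to 58.2 to 303 CPM. NK cell genes summed to 232, 333, 300 and 423 CPM in NCD, HFD replicate 1, HFD replicate 2 and JQF. Gamma-delta T cell genes summed to 32.4, 31.4, 76.1 and 236 CPM and neutrophil genes to 2.49, 87.7, 51.0 and 235 CPM. In the JQF cells with 0 UMIs of the 3 receptors, these lists summed to 145, 61.0 and 15.1 CPM. The rule holds no NK or gamma-delta T cell gene, and the part of such cells in the JQF values was not tested. Of the regulatory T cell list, Foxp3 was at 0 in NCD, and the list's other genes, Ctla4 and Ikzf2, also stand in the inhibitory receptor and transcription factor lists.

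The antigen receptor genes carried by these cells differed between HFD replicates 1 and 2, and the variable segments that led in each are shown first. They are the last 200 bases of each V exon in GRCm38, all on the plus strand of chromosome 14. Trav13-4-dv7 led in HFD replicate 2 (chr14:53757722-53757921) and Trav16n in HFD replicate 1 (chr14:53351422-53351621). Trav16 (chr14:53743506-53743705) and Trav16d-dv11 (chr14:53047622-53047821) are near-identical copies of Trav16n, and capitals mark the bases in which each differs from it.
Trav13-4-dv7: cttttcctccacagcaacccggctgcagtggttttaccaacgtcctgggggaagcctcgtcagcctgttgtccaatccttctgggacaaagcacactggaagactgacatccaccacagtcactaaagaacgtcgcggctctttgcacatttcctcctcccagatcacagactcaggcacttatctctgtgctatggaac
Trav16n: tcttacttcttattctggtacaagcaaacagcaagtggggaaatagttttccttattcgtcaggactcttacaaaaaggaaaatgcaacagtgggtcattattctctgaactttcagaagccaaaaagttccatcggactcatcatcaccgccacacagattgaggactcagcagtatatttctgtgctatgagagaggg
Trav16: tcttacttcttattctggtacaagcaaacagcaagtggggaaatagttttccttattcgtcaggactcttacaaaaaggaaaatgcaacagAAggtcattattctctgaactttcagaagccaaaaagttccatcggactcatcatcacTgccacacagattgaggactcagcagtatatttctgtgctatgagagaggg
Trav16d-dv11: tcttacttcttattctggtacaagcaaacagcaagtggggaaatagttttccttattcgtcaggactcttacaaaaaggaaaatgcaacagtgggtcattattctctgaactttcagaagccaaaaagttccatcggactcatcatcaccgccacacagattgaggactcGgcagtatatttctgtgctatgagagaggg
Trav16 differed from Trav16n at 3 of these 200 bases and Trav16d-dv11 at 1, so the assignment of a read among the copies is uncertain.

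A cell was assigned the V alpha or V beta gene with its highest UMI count, when that was not tied. Only part of the cells could be assigned: 11, 147, 324 and 20 checkpoint-high cells of NCD, HFD replicate 1, HFD replicate 2 and JQF for V alpha. In HFD replicate 1, Trav16n took 81.6% of the assigned cells, and in HFD replicate 2, Trav13-4-dv7 took 85.8%. In NCD, Trav6-4 took 54.5% of 11 cells, and in JQF, Trav6-3 took 20.0% of 20 cells. Among checkpoint-negative CD8 T cells, those with 0 UMIs of the 3 receptors, the leading V alpha gene took 20.0%, 13.8%, 8.20% and 15.1%, and Trav16n led or tied for the lead in all 4 libraries. The leading gene of a library thus took a large share of the assigned checkpoint-high cells in both HFD libraries, and was a different gene in each.

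Among checkpoint-high cells, UMIs of the 2 leading genes of HFD were each seen mainly in one library. Shares here are of cells with a UMI of the gene, and a cell without one may still carry it, since most cells of NCD and JQF gave no V alpha gene. A Trav16n UMI was present in 125 of 459 checkpoint-high cells of HFD replicate 1 (27.2%), in 1 of 614 of HFD replicate 2, in 1 of 81 of NCD and in 0 of 130 of JQF, which allows up to 2.31% of cells with a UMI. In the checkpoint-negative cells of HFD replicate 1 it was present in 14 of 403 (3.47%). Those of NCD, HFD replicate 2 and JQF held it in 2 of 95 (2.11%), 5 of 357 (1.40%) and 12 of 445 (2.70%), so Trav16n was not confined to one library there. A Trav13-4-dv7 UMI was present in 285 of 614 checkpoint-high cells of HFD replicate 2 (46.4%) and in 5 of 357 of its checkpoint-negative cells (1.40%). It was in 0 of 81, 0 of 459 and 0 of 130 checkpoint-high cells of NCD, HFD replicate 1 and JQF, which allow up to 3.70%, 0.654% and 2.31% of cells with a UMI. Cycling checkpoint-high CD8 T cells of the same libraries, which the rule leaves out, held Trav16n in 22 of 64 cells (34.4%) in HFD replicate 1 and Trav13-4-dv7 in 77 of 200 (38.5%) in HFD replicate 2.

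The effective number of V genes, the inverse of the summed squared shares, compared checkpoint-high with checkpoint-negative cells. For V alpha it was 2.95 against 7.14 in NCD, 1.49 against 16.9 in HFD replicate 1, 1.34 against 24.0 in HFD replicate 2 and 9.52 against 15.9 in JQF. For V beta it was 2.11 against 8.07, 4.04 against 12.5, 6.08 against 9.69 and 7.05 against 9.97. The number depends on how many cells were assigned, 20 against 73 for V alpha and 17 against 51 for V beta in JQF. Corrected for this, as the inverse of the chance that 2 different cells share a gene, V alpha gave 3.67 against 22.5 in NCD, 1.49 against 20.7 in HFD replicate 1, 1.34 against 38.9 in HFD replicate 2 and 17.3 against 20.1 in JQF. V beta gave 2.23 against 12.2, 4.17 against 15.5, 6.43 against 12.3 and 11.3 against 12.1. The states of JQF were thus close once corrected, and the V alpha values of NCD rest on 11 and 10 cells. The leading V beta genes were Trbv12-2 (12 of 21 cells) in NCD, Trbv19 (36 of 93) in HFD replicate 1, Trbv1 (31 of 93) in HFD replicate 2 and Trbv12-1 (5 of 17) in JQF.

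Each mature receptor uses 1 of 2 beta constant genes, Trbc1 or Trbc2, and the gene with more UMIs gives a readout in almost every cell. Cells could hold UMIs of both. A Trbc1 UMI was present in 82.8% of checkpoint-high cells of HFD replicate 1 and 15.0% of HFD replicate 2, more than those that Trbc1 led. Trbc1 had more UMIs than Trbc2 in 76.3% of checkpoint-high cells of NCD (95% exact Clopper-Pearson interval 65.4% to 85.1%), 15.7% of HFD replicate 1 (12.4% to 19.4%), 7.83% of HFD replicate 2 (5.81% to 10.3%) and 21.1% of JQF (14.3% to 29.4%). The checkpoint-negative cells of the same libraries gave 32.6%, 26.9%, 26.9% and 39.2%. NCD thus lay above its checkpoint-negative cells, and both HFD libraries and JQF lay below theirs. These intervals cover counting error only.

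The beta constant gene was also read within the cells of each leading V alpha gene. Of the HFD replicate 2 cells with Trav13-4-dv7, 0 were led by Trbc1 and 280 by Trbc2, which allows a Trbc1 share of up to 1.07%, against 47 and 273 in the cells without it (14.7%). Of the HFD replicate 1 cells with Trav16n, 17 were led by Trbc1 and 105 by Trbc2 (13.9%), against 53 and 272 in the cells without it (16.3%). Of the cycling cells of HFD replicate 2 with Trav13-4-dv7, 2 were led by Trbc1 and 74 by Trbc2 (2.63%). Trbv1 was the gene of 16 of the 31 Trav13-4-dv7 cells with an assigned V beta gene, and Trbv19 of 14 of the 28 Trav16n cells. A shared V gene does not establish a clone, since the junction was not read here.

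**Figure D1:**
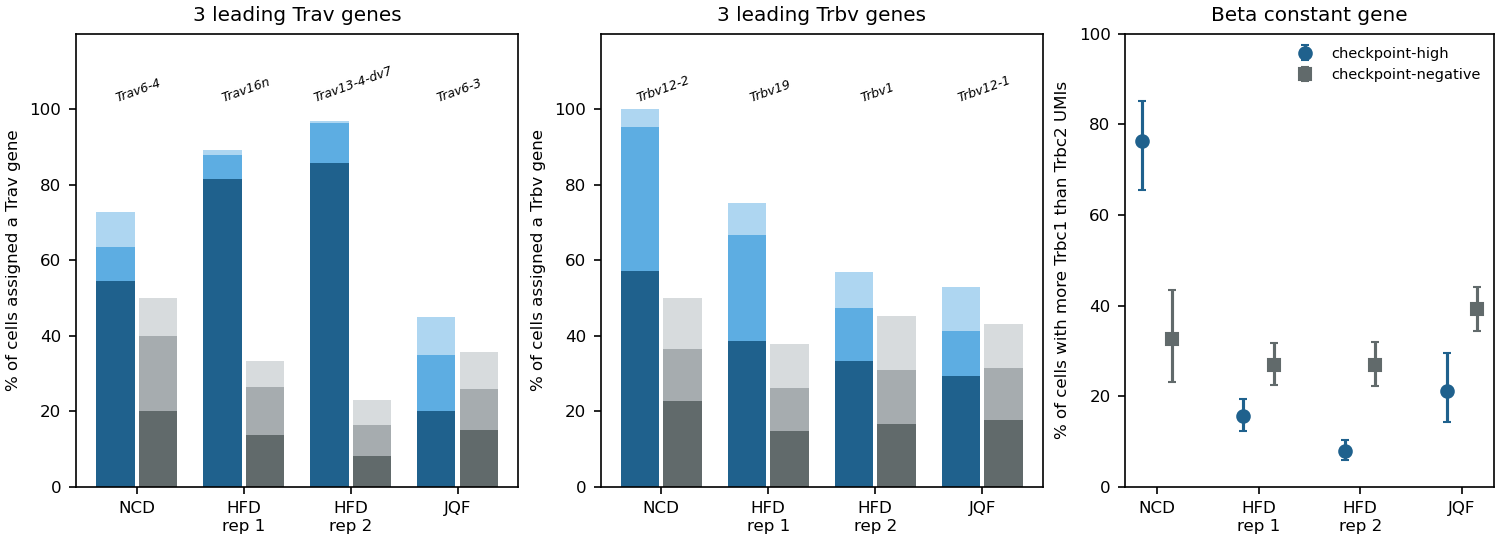
The first 2 panels stack, by library, the percentages of assigned cells that the 3 leading V alpha or V beta genes took in checkpoint-high (blue) and checkpoint-negative (grey) CD8 T cells, the darkest segment being the leading gene, named above the bar for the checkpoint-high cells, and the last panel shows the percentage of cells with more Trbc1 than Trbc2 UMIs, with 95% exact intervals. The leading V alpha gene took 81.6% and 85.8% of assigned checkpoint-high cells in the HFD libraries, and Trbc1-led cells made up 76.3% in NCD against 7.83% to 21.1% elsewhere.

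Cells with Trav13-4-dv7 in HFD replicate 2 held more Gzma, which encodes granzyme A, than the other checkpoint-high cells of that library, 2812 against 1296 CPM. They held less Gzmb, which encodes granzyme B, at 397 against 668 CPM, and less Il10, an inhibitory cytokine gene, at 73.0 against 193 CPM. Tox was at 3429 against 3036 CPM. In HFD replicate 1, cells with Trav16n held Gzma at 423 against 559 CPM, Gzmb at 971 against 843 CPM and Il10 at 211 against 357 CPM. Each is a comparison inside 1 library and has no replicate check. The cells with the leading gene also had more UMIs, with medians of 6588 against 6137 in HFD replicate 2 and 7464 against 6786.5 in HFD replicate 1.

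The share of T cells, those with at least 2 Cd3 UMIs, that were checkpoint-high was 9.65% in NCD (95% exact Clopper-Pearson interval 7.74% to 11.9%), 22.0% in HFD replicate 1 (20.2% to 23.8%), 27.5% in HFD replicate 2 (25.7% to 29.4%) and 3.31% in JQF (2.77% to 3.92%). Both HFD libraries lay above NCD and JQF lay below NCD and HFD. The HFD mean of 24.7% ± 3.90 (SD, n = 2) was 2.56 times the NCD value, and the JQF value was 0.134 times the HFD mean. An exact permutation test over the libraries gave p = 0.333 for both, two-sided, the smallest that 2 libraries against 1 can give.

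The denominator changed the contrast with NCD. As a share of CD8 T cells, the rule without its checkpoint term, the values were 42.0%, 49.0%, 59.2% and 19.5%, and the HFD mean was 1.29 times NCD (exact permutation p = 0.667) and JQF 0.360 times the HFD mean (exact permutation p = 0.333). Thinning every cell to 2000 UMIs left out cells below that depth. It gave 49.6%, 35.9%, 48.8% and 6.43% of CD8 T cells, with NCD then above the mean of HFD at a ratio of 0.854. The rule was run again on the thinned counts, so cells that its upper limits had left out could enter. In NCD, 42 of the 63 thinned cells that met it had met it before, a smaller part than in any other library. The part of newly admitted cells in the thinned shares was not tested. Of T cells, the thinned shares were 12.8%, 16.8%, 26.0% and 1.09%. As a share of all kept cells the values were 1.36%, 7.04%, 5.98% and 1.52%. JQF lay below both HFD libraries under each denominator. Among kept cells it lay above NCD as deposited but below it after thinning (0.387% against 1.16%) and with at least 3 receptor UMIs (0.984% against 1.29%), and the higher share in HFD than in NCD was not present among thinned CD8 T cells.

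A background for such shares was read in B cells. Among B cells, defined by at least 2 UMIs of Cd79a and Cd79b and 0 Cd3 UMIs, which should lack these receptors, 2.71%, 6.46%, 7.53% and 3.88% reached 2 checkpoint UMIs, at median depths of 8723, 5727, 5994.5 and 7243.5 UMIs. After thinning, 0 of 271, 0 of 277, 0 of 378 and 0 of 354 B cells did. The checkpoint-high share of CD8 T cells lay above the B cell share in every library, by the least in JQF.

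**Figure D2:**
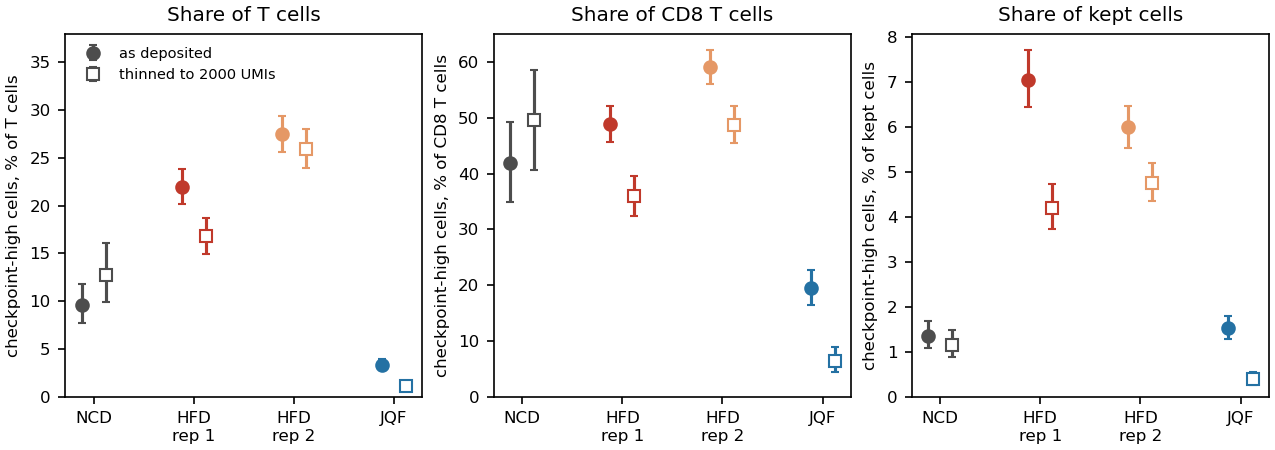
The panels show checkpoint-high cells as a percentage of T cells, of CD8 T cells and of all kept cells in each library, as deposited (circles) and after thinning each cell to 2000 UMIs (squares), with 95% exact intervals. The JQF library was lowest among CD8 T cells at 19.5%, and 6.43% after thinning, while NCD lay at 42.0% and 49.6%. The rule was run again on the thinned counts, which admitted cells that had not met it before.

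The 3 receptors that chose the cells were not evenly held. Pdcd1 had a UMI in 92.6%, 85.6%, 93.8% and 83.8% of checkpoint-high cells of NCD, HFD replicate 1, HFD replicate 2 and JQF, and Lag3 in 84.0%, 80.4%, 72.1% and 46.2%. Havcr2 had one in 81.5%, 76.0%, 75.9% and 16.9%, beside 2.93%, 7.58%, 12.5% and 5.60% of B cells. All 3 receptors were found in 71.6%, 54.0%, 54.2% and 3.85% of the cells. The JQF cells were mostly Pdcd1 cells with few TIM-3 transcripts, and 56.9% of them held a single receptor, against 12% to 13.6% in the other libraries.

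The median checkpoint-high cell held 19 UMIs of the 3 receptors in NCD, 7 in each HFD library and 3 in JQF. Cells with 8 or more made up 31.6%, 21.1%, 29.5% and 1.20% of CD8 T cells. Both are raw counts, and the checkpoint-high cells of NCD were the deepest, as given above. In CPM, Pdcd1 was at 538, 400, 581 and 299 in NCD, HFD replicate 1, HFD replicate 2 and JQF. Lag3 was at 225, 302, 276 and 84.9 CPM, and Havcr2 at 648, 310, 371 and 51.6 CPM. At the threshold itself, cells with 1 UMI, just outside the rule, held Tox at 839, 935, 1363 and 1241 CPM, and cells with 2 UMIs, just inside, at 2160, 1620, 2318 and 1355 CPM. The cells just inside numbered 4, 59, 62 and 46, so in JQF they were a large part of the 130 and in NCD a small part of the 81.

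**Figure D3:**
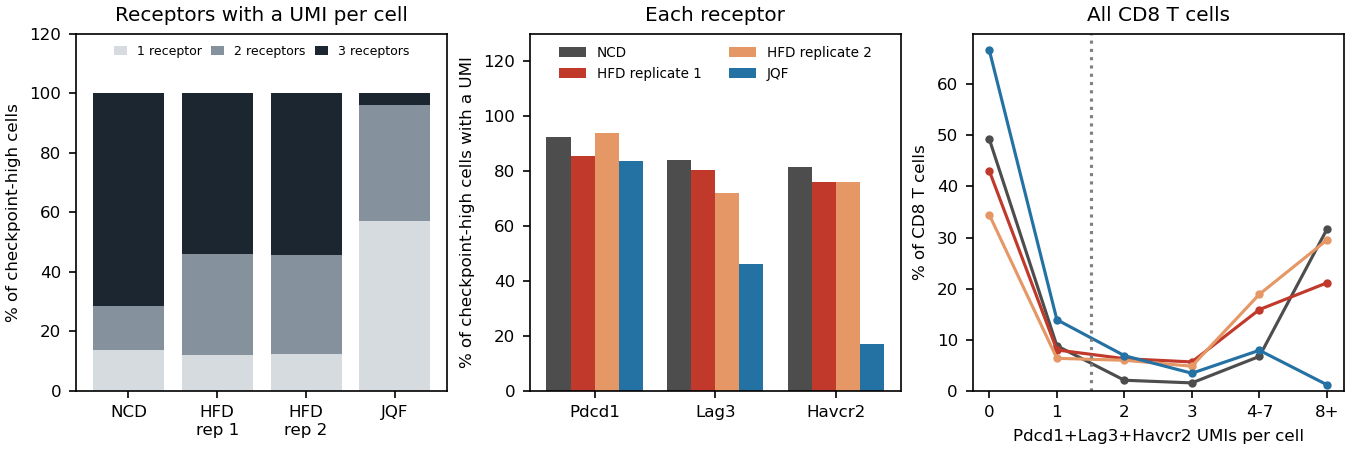
The panels show the percentage of checkpoint-high cells with a UMI of 1, 2 or 3 receptors, the percentage with each receptor, and all CD8 T cells by their summed Pdcd1, Lag3 and Havcr2 UMIs, with the dotted line at the threshold of the rule. Havcr2 was found in 16.9% of JQF cells against 75.9% to 81.5% in the other libraries, and 1.20% of JQF CD8 T cells reached 8 UMIs.

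Compared with the checkpoint-negative CD8 T cells of the same libraries, checkpoint-high cells had higher Tox, Ctla4, Tigit, Gzma, Gzmk, Ccl3, Ccl4 and Ccl5 and lower Tcf7, Il7r, Ccr7 and Lef1. Counts were summed per library and state and tested with edgeR's quasi-likelihood test with the library as a block, leaving out the genes of the rule. Of 10436 genes tested, 1196 (11.5%) passed an adjusted p of 0.05, 522 higher (5%) and 674 lower (6.46%). The gene lists described below had 142 of their 143 genes in the files. The median log2 fold change over all genes tested was 0.0073.

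Of 17 transcription factors of exhaustion and effector differentiation, 10 were higher and 0 lower, with a median log2 fold change of 1.17. Tox (ENSMUSG00000041272, chromosome 4, 6686353 to 6991557, minus strand in GRCm38), a regulator of exhaustion, was at 3320, 2476, 3227 and 1733 CPM in checkpoint-high cells of NCD, HFD replicate 1, HFD replicate 2 and JQF and at 439, 340, 378 and 357 CPM in checkpoint-negative cells. The states did not overlap, and the log2 fold change was 2.70 (SE 0.15, edgeR adjusted p = 0.00238). Its relative Tox2 was at 136, 35.8, 109 and 25.0 CPM against 0, 2.53, 4.04 and 1.71 (log2 fold change 4.55, SE 0.47, edgeR adjusted p = 0.00494). Prdm1, which encodes the effector regulator BLIMP-1, rose by 1.88 on the log2 scale (SE 0.18, edgeR adjusted p = 0.00491), and Nr4a2, an orphan receptor induced by antigen receptor signals, by 1.84 (SE 0.23, edgeR adjusted p = 0.00674). Maf, a regulator of inhibitory receptors and Il10, was at 432, 895, 623 and 94.9 CPM against 269, 60.2, 57.7 and 23.9 (log2 fold change 2.45, SE 0.56, edgeR adjusted p = 0.0380). In the NCD cells, 3 cells held 52.0% of the Maf UMIs.

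Among other inhibitory receptors, 6 of the 12 tested were higher and 3 lower (median 1.25). Ctla4, which encodes the receptor that competes with CD28 for its ligands, was at 967, 584, 970 and 340 CPM against 104, 42.8, 89.4 and 77.1, and differed by 3.05 on the log2 scale (SE 0.27, edgeR adjusted p = 0.00444). Tigit, a receptor for nectin-like ligands, rose by 2.51 on the log2 scale (SE 0.23, edgeR adjusted p = 0.00449), and Cd200r1 by 2.55 (SE 0.35, edgeR adjusted p = 0.00921). Entpd1, which encodes the ectonucleotidase CD39, rose by 1.76 (SE 0.21, edgeR adjusted p = 0.00620). Btla, an inhibitory receptor of naive and resting T cells, fell by 1.39 (SE 0.28, edgeR adjusted p = 0.0261). Of 8 costimulatory receptors, 4 were higher and 0 lower (median 0.77), among them Tnfrsf9, which encodes 4-1BB, by 2.53 (SE 0.34, edgeR adjusted p = 0.00809) and Tnfrsf4, which encodes OX40, by 4.13 (SE 0.33, edgeR adjusted p = 0.00418).

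Of 14 naive and progenitor genes, 12 were lower and 0 higher, with a median of -1.97. Tcf7 was at 15.8, 21, 26.6 and 112 CPM in checkpoint-high cells of NCD, HFD replicate 1, HFD replicate 2 and JQF and at 182, 292, 279 and 291 CPM in checkpoint-negative cells (log2 fold change -3.07, SE 0.42, edgeR adjusted p = 0.00908). Il7r, which encodes the receptor for the survival cytokine IL-7, was at 16.6, 34.5, 42.1 and 232 CPM against 507, 738, 631 and 558 (log2 fold change -3.68, SE 0.62, edgeR adjusted p = 0.0156). JQF was the highest library for both genes in the checkpoint-high state, and the states did not overlap. Ccr7, a lymph node homing receptor gene, fell by 4.46 on the log2 scale (SE 0.40, edgeR adjusted p = 0.00435). The naive state regulators Lef1 and Satb1 fell by 3.51 (SE 0.24, edgeR adjusted p = 0.00281) and 3.62 (SE 0.40, edgeR adjusted p = 0.00505).

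Of 13 killing genes, 6 were higher and 1 lower (median 0.66). Gzma was at 1923, 520, 2034 and 1057 CPM against 294, 124, 231 and 189 (log2 fold change 2.51, SE 0.18, edgeR adjusted p = 0.00281). Gzmk, a marker granzyme of this state, was at 158, 389, 387 and 101 CPM against 19.2, 90.9, 82.0 and 46.1 (log2 fold change 1.98, SE 0.27, edgeR adjusted p = 0.00884). Nkg7, a granule membrane protein gene, rose by 1.59 on the log2 scale (SE 0.22, edgeR adjusted p = 0.00934) and Prf1, the perforin gene, by 1.13 (SE 0.26, edgeR adjusted p = 0.0394). Gzmb was at 453, 879, 536 and 332 CPM against 309, 131, 150 and 236 and did not pass (log2 fold change 1.32, SE 0.40, edgeR adjusted p = 0.0835). Gzmb passed in 6 of 12 alternatives, among them DESeq2 (adjusted p = 0.00926) and, in edgeR, without cells with myeloid UMIs (0.0308) or with UMIs of any other type (0.0249), without predicted doublets (0.0336) and without JQF (0.0487). Gzmm, another granzyme gene, was the single member lower in checkpoint-high cells (log2 fold change -3.31, SE 0.35, edgeR adjusted p = 0.00505). Granzymes A and K thus differed from granzyme M in direction.

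Of 11 cytokine and chemokine genes tested, 5 were higher and 0 lower, with a median of -0.0063. Ccl3, which encodes the macrophage and T cell attractant MIP-1 alpha, was at 1437, 975, 1429 and 687 CPM against 132, 59.9, 130 and 166 (log2 fold change 3.15, SE 0.32, edgeR adjusted p = 0.00494). Its relatives Ccl4 and Ccl5 rose by 1.60 (SE 0.13, edgeR adjusted p = 0.00418) and 1.41 (SE 0.20, edgeR adjusted p = 0.00965). Csf1, the macrophage growth factor gene, rose by 3.10 (SE 0.25, edgeR adjusted p = 0.00418). Il10 was at 83.0, 315, 134 and 25.8 CPM against 15.6, 3.49, 4.41 and 2.20 (log2 fold change 4.41, SE 0.63, edgeR adjusted p = 0.0101), and 3 cells held 88.0% of its UMIs in NCD and 87.1% in JQF.

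Of 16 residency and homing genes, 5 were higher and 2 lower (median -0.43). Cxcr6, a chemokine receptor of liver-resident T cells, rose by 1.18 on the log2 scale (SE 0.19, edgeR adjusted p = 0.0149) and S1pr1, which lets T cells leave tissue, fell by 2.08 (SE 0.19, edgeR adjusted p = 0.00468). None of 11 NK-type receptors passed with edgeR (median -0.79), nor did any of 13 immediate early and heat shock genes (median -0.11). Of 14 interferon-stimulated genes 1 was higher and 2 lower (median -0.35), and of 9 lipid genes 1 was higher and 0 lower (median 0.65).

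The genes with the largest higher values included several outside these lists. Penk, which encodes the opioid precursor proenkephalin, was at 531, 46.9, 80.8 and 5.83 CPM against 0, 1.27, 0 and 0 and passed (edgeR adjusted p = 0.00418). With 0 UMIs in the checkpoint-negative cells of 3 libraries, its fitted log2 fold change of 7.56 depends on the prior count, and it ran from 3.87 to 10.9 over the alternatives. The JQF level of Penk rests on 7 UMIs in 1.54% of the cells. Glp1r, which encodes the receptor for the gut hormone GLP-1, was at 190, 71.7, 118 and 20.8 CPM against 5.50, 3.49, 2.21 and 2.93 (log2 fold change 4.42, SE 0.40, edgeR adjusted p = 0.00453), with a UMI in 76.5%, 33.8%, 44.3% and 16.9% of the cells. Both were highest in NCD and lowest in JQF. Map2, a microtubule protein gene best known from neurons, rose by 4.82 (SE 0.59, edgeR adjusted p = 0.00649), Rgs16, a regulator of G protein signals, by 4.04 (SE 0.24, edgeR adjusted p = 0.00238), and Setbp1 by 3.23 (SE 0.30, edgeR adjusted p = 0.00453). Adgrg1, an adhesion receptor gene of cytotoxic lymphocytes, was not named by this ranking. It was listed because earlier results of these data had it raised in T cells of HFD. It rose by 4.45 (SE 0.58, edgeR adjusted p = 0.00797).

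Leaving out either HFD library lowered the number of calls. Without HFD replicate 1, 93 genes passed and 18 of the 35 called genes named above lost their call with edgeR, with adjusted p from 0.0502 to 0.175. They were Maf, Prdm1, Nr4a2, Entpd1, Cd200r1, Btla, Tcf7, Il7r, Satb1, Gzmk, Prf1, Nkg7, Ccl5, Il10, Cxcr6, Tnfrsf9, Map2 and Adgrg1. Without HFD replicate 2, 134 passed, and Tox2 and 15 of these genes lost theirs, all but Prdm1, Nr4a2 and Satb1. Prf1 also lost its call without NCD (edgeR adjusted p = 0.0603). The log2 fold changes of the genes that lost their call stayed near those above, such as 1.87 for Prdm1, 1.98 for Gzmk and -3.38 for Il7r without HFD replicate 1, and no named gene turned its direction under any alternative. Thinned to 2000 UMIs a cell, 707 genes passed, and the 33 of the 35 still tested kept their calls. Several were then smaller, with log2 fold changes of 1.65 for Tox, 1.22 for Gzma, 1.00 for Gzmk, 1.83 for Ccl3, 2.49 for Glp1r and 2.28 for Map2.

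**Figure D4:**
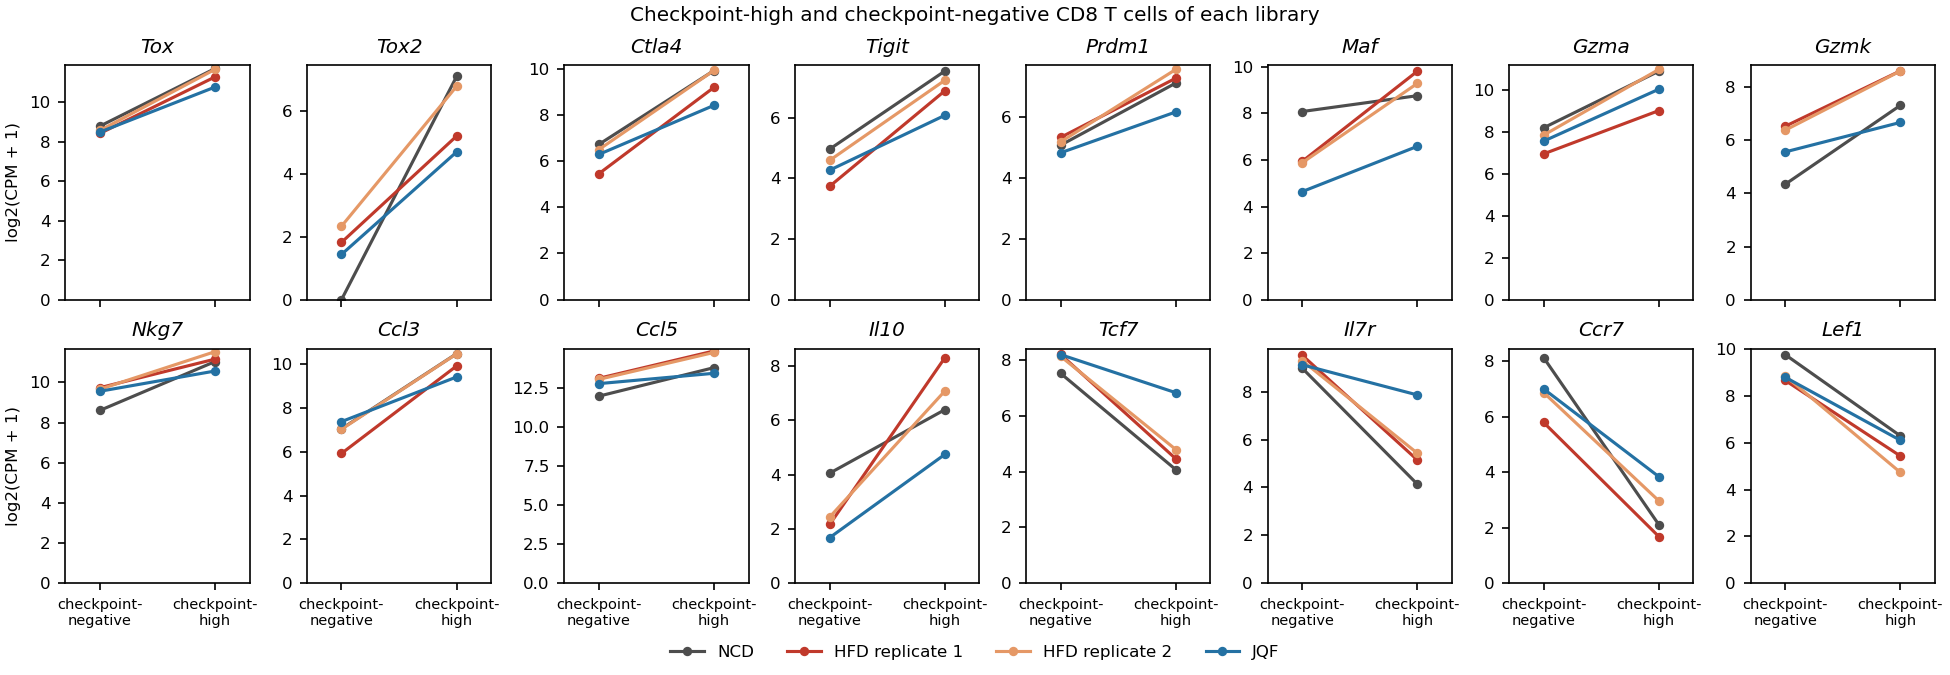
Each panel plots one gene as log2(CPM + 1) in the checkpoint-negative and checkpoint-high CD8 T cells of each library, joined by a line for each library. Tox, Ctla4, Gzma and Ccl3 rose and Tcf7, Il7r, Ccr7 and Lef1 fell in all 4 libraries, and the JQF line of Tcf7 and Il7r falls the least.

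Checkpoint-high CD4 T cells, found by the same receptor term with Cd4 in place of Cd8 and without Foxp3, numbered 42, 33, 18 and 27 in NCD, HFD replicate 1, HFD replicate 2 and JQF. Of 7837 genes tested with edgeR, 96 (1.22%) passed, 52 higher in CD8 T cells (0.664%) and 44 lower (0.561%). The Gzma UMIs of the CD4 T cells were 0, 1, 0 and 0, against 2318, 1887, 8932 and 1270 in the CD8 T cells, of which 50, 152, 324 and 71 cells held one. Klrc1, which encodes the inhibitory NKG2A receptor, and Glp1r had 0 UMIs in all 4 CD4 libraries. Set against a floor of 3 UMIs over the 4 libraries together, they were at least 49.6-fold and 38.3-fold higher in CD8 T cells.

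Of 12 killing genes tested against CD4 T cells, 4 were higher and 0 lower (median 1.21, all genes 0.020). They were Gzma, Prf1 at 4.60 on the log2 scale (SE 0.41, edgeR adjusted p = 0.00453), Gzmb at 4.49 (SE 0.64, edgeR adjusted p = 0.0184) and Nkg7 at 2.87 (SE 0.31, edgeR adjusted p = 0.00818). Of 9 cytokine and chemokine genes, 3 were higher and 1 lower (median 0.54), among them Ccl3 by 4.47 (SE 0.56, edgeR adjusted p = 0.0137) and Ccl4 by 3.57 (SE 0.47, edgeR adjusted p = 0.0167). Of the exhaustion regulators, 4 of 17 were higher and 0 lower (median 0.43). Inhibitory receptors had 1 of 12 higher and 2 lower (median 0.86). The lower genes were led by St6gal1, a sialyltransferase gene, at -3.43 (SE 0.36, edgeR adjusted p = 0.00818), and Tnfsf8, which encodes the CD30 ligand, at -2.98 (SE 0.32, edgeR adjusted p = 0.00818). Tnfrsf4 was at -2.70 (SE 0.37, edgeR adjusted p = 0.0172), Btla at -2.14 (SE 0.36, edgeR adjusted p = 0.0336) and the interferon-induced chemokine gene Cxcl10 at -1.96 (SE 0.35, edgeR adjusted p = 0.0386).

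Leaving out single libraries ended some of these calls against CD4 T cells. Without HFD replicate 1, 20 genes passed and Ccl3, Tnfrsf4 and Cxcl10 did not (edgeR adjusted p from 0.0560 to 0.160), at log2 fold changes of 4.11, -2.42 and -1.62. Without HFD replicate 2, 51 passed and Btla and Cxcl10 did not, at log2 fold changes of -1.79 and -1.70. Without JQF, 53 passed and Gzmb, Btla and Cxcl10 did not, at 4.34, -2.12 and -2.18. Without NCD, 132 passed and Btla did not, at -2.15. With at least 3 checkpoint UMIs a cell Btla also lost its call (-1.98, edgeR adjusted p = 0.0899).

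The group comparisons within checkpoint-high cells asked which genes the diet and the formula changed in them. Between HFD and NCD, 738 of 11539 genes (6.4%) passed with edgeR, 206 higher in HFD (1.79%) and 532 lower (4.61%). The only residual degree of freedom is the HFD pair, and this pair serves in the comparison with JQF as well. The largest differences were genes of other cell types. Lyz2 and Cd74, genes of myeloid and antigen-presenting cells, differed by 8.55 (SE 0.48, edgeR adjusted p = 0.00393) and 6.61 (SE 0.37, edgeR adjusted p = 0.00393), beside the macrophage levels given above. Kdr and Dlc1, which endothelial cells express, differed by -6.25 (SE 0.85, edgeR adjusted p = 0.0221) and -7.87 (SE 0.63, edgeR adjusted p = 0.00728), with 67.8% and 66.3% of the NCD UMIs in 3 cells. The part of other cells' RNA in the remaining calls was not tested. Without cells holding at least 3 UMIs of other cells' genes, 11 of the 12 named genes still tested kept their calls, but these include Lyz2 and Cd74, at 4.75 and 3.75.

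Of 11 NK-type receptor genes, 3 were lower and 2 higher in HFD than in NCD and 6 did not pass (median -1.20, all genes 0.064). Klre1, a lectin receptor gene of NK and cytotoxic T cells, was at 359 CPM in NCD, with a UMI in 90.1% of the cells, against 31.4 and 19.1 CPM in HFD replicates 1 and 2 (log2 fold change -3.79, SE 0.30, edgeR adjusted p = 0.00700). Klrk1, which encodes the activating receptor NKG2D, was at 451 against 84.4 and 72.9 CPM (log2 fold change -2.47, SE 0.21, edgeR adjusted p = 0.00835). Klrd1, which encodes CD94, the partner of NKG2A, was at 465 against 172 and 140 CPM (log2 fold change -1.53, SE 0.22, edgeR adjusted p = 0.0260). The 2 higher genes of the list were the adaptor genes Tyrobp and Fcer1g, which myeloid cells also express.

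Single genes outside the NK-type receptors also passed between HFD and NCD. Gzmk rose by 1.35 on the log2 scale (158 against 389 and 387 CPM, SE 0.23, edgeR adjusted p = 0.0356) and Ccl5 by 1.07 (14121 against 29586 and 27717 CPM, SE 0.19, edgeR adjusted p = 0.0383). Cxcr3, the receptor for interferon-induced chemokines, rose by 2.82 (9.96 against 86.9 and 50.3 CPM, SE 0.48, edgeR adjusted p = 0.0350) and Cd101, an inhibitory receptor gene of late exhausted cells, by 1.66 (31.5 against 113 and 80.8 CPM, SE 0.30, edgeR adjusted p = 0.0394). Coch, a secreted protein gene, was at 15.8 against 115 and 234 CPM (log2 fold change 3.53, SE 0.61, edgeR adjusted p = 0.0358). It was listed because earlier results of these data had it raised in T cells of HFD, so this call is no further support. Nr4a3, induced by antigen receptor signals, and the immediate early gene Junb fell by 2.24 (SE 0.35, edgeR adjusted p = 0.0307) and 1.21 (SE 0.20, edgeR adjusted p = 0.0323). Of the 17 exhaustion regulators, Nr4a3 was the single one to pass (median -0.070), and of 13 other inhibitory receptors 2 were higher (median 0.17), of 13 killing genes 1 (median 0.37) and of 14 naive and progenitor genes none (median 0.049).

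Ccl5 lost its call without predicted doublets (edgeR adjusted p = 0.217) and without cells holding other cells' transcripts (edgeR adjusted p = 0.124), at log2 fold changes of 1.00 and 0.96. Thinned to 2000 UMIs, 66 genes passed, and Lyz2, Cd74, Gzmk, Ccl5, Cxcr3, Cd101, Coch and Junb did not, with adjusted p from 0.0573 to 0.507 by edgeR. The thinned log2 fold changes of Gzmk, Ccl5, Cxcr3, Cd101, Coch and Junb were 1.19, 1.01, 3.07, 1.87, 3.92 and -1.33, near those above, while Lyz2 and Cd74 came to 1.95 and 3.66. Leaving out either HFD library leaves no replicate in this fit, so only values could be given.

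Between JQF and HFD, 23 genes (0.199%) were higher in JQF and 0 lower with edgeR, while 1704 had an unadjusted p under 0.05 and DESeq2 called 105 higher and 33 lower. Il7r, the single gene of the 14 naive and progenitor genes to pass, was at 232 CPM in JQF against 34.5 and 42.1 in HFD replicates 1 and 2 (log2 fold change 2.66, SE 0.23, edgeR adjusted p = 0.0383). Il12rb2, a chain of the IL-12 receptor, was at 288 against 21 and 10.2 CPM (log2 fold change 4.29, SE 0.37, edgeR adjusted p = 0.0383), and Emb, which encodes the adhesion protein embigin, at 915 against 68.4 and 83.1 CPM (log2 fold change 3.65, SE 0.24, edgeR adjusted p = 0.0265). Rora, a nuclear receptor of innate-like and memory lymphocytes, was at 357 against 63.1 and 55.1 CPM (log2 fold change 2.66, SE 0.21, edgeR adjusted p = 0.0354). JQF lay above both HFD libraries for each of these genes. This was a condition for naming genes outside the lists and is no further support. In checkpoint-negative cells of NCD, HFD replicate 1, HFD replicate 2 and JQF, Il12rb2 was at 478, 196, 202 and 382 CPM. Emb was at 1500, 574, 1064 and 862 CPM there, and Rora at 570, 282, 238 and 346 CPM. The checkpoint-high cells of JQF thus lay below the checkpoint-negative level of that library for Il12rb2 and near it for Emb and Rora.

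Further genes higher in JQF were Ssbp2 (log2 fold change 3.10, SE 0.20, edgeR adjusted p = 0.0265), the signalling inhibitor gene Spry2 (3.33, SE 0.28, edgeR adjusted p = 0.0383), the elongation factor gene Ell2 (3.21, SE 0.23, edgeR adjusted p = 0.0265), Dhx40 (3.79, SE 0.32, edgeR adjusted p = 0.0383) and the immediate early gene Fosb (2.11, SE 0.20, edgeR adjusted p = 0.0417). Some calls came from very few cells. Ccl1, a chemokine gene, had 584 UMIs in JQF, all in 2 cells, against 1 and 0 UMIs in HFD. Il1b, an inflammatory cytokine gene of myeloid cells, was called at 3.06 (SE 0.31, edgeR adjusted p = 0.0483) with 86.6% of its JQF UMIs in 3 cells, and without cells with at least 3 myeloid UMIs its log2 fold change was -0.43.

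Several genes had large differences between JQF and HFD without passing. Tcf7 was at 112 CPM in JQF against 21 and 26.6 in HFD (log2 fold change 2.29, SE 0.26, edgeR adjusted p = 0.0578), and Xcl1 at 1087 against 142 and 55.8 CPM (3.54, SE 0.49, edgeR adjusted p = 0.0700). Maf was at 94.9 against 895 and 623 CPM (-2.93, SE 0.32, edgeR adjusted p = 0.0578) and Coch at 1.67 against 115 and 234 CPM (-6.62, SE 0.88, edgeR adjusted p = 0.0652). These 4 genes passed with edgeR once cells holding at least 3 myeloid UMIs were left out, when 275 genes did. Coch had been listed for its higher level in HFD, so this is no further support for it. Among the lists, naive and progenitor genes had a median of 1.15 and exhaustion regulators of -0.65, against -0.050 over all genes tested, with 1 and 0 genes called.

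Thinning to 2000 UMIs left 32 checkpoint-high cells in JQF and 1 gene called between JQF and HFD, Xcl1 (log2 fold change 5.02, edgeR adjusted p = 0.0122). None of the 10 genes called before and still tested passed, with adjusted p from 0.151 to 0.946 by edgeR. Most kept their size, with thinned log2 fold changes of 4.47 for Il12rb2, 3.64 for Emb, 3.65 for Ssbp2 and 2.98 for Il7r, while Il1b turned to -0.49. With at least 3 checkpoint UMIs a cell, 3 genes passed, and Ccl1 and Emb alone of the named genes kept their calls. The log2 fold changes of Il12rb2, Ssbp2, Rora, Il7r and Dhx40 were then 4.32, 3.45, 2.68, 2.63 and 3.70, with edgeR adjusted p from 0.0539 to 0.0787. The checkpoint-high cells of JQF held fewer receptor UMIs than those of HFD, and the part of that difference in these calls was not tested by the fit.

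Cells in the same range of receptor UMIs were therefore set side by side, without a test. At 4 to 7 receptor UMIs there were 13, 149, 196 and 53 cells in NCD, HFD replicate 1, HFD replicate 2 and JQF, with median depths of 9890, 6383, 5552.5 and 7274 UMIs. Tcf7 was at 20.6, 6.13, 15.5 and 90.2 CPM, Il7r at 82.5, 4.09, 16.3 and 147, and Xcl1 at 124, 109, 32.6 and 1623 CPM. Maf was at 701, 960, 533 and 110 CPM, Ccl5 at 11629, 33912, 30103 and 11130, and Gzmk at 151, 444, 372 and 92.4 CPM. In this bin JQF lay above both HFD libraries for Tcf7, Il7r and Xcl1 and below both for Maf, Ccl5 and Gzmk, and NCD lay near JQF for Ccl5 and between the HFD libraries for Maf. JQF also lay below both for Ccl3, Gzmb and Ctla4 there, at 196, 246 and 530 CPM, but not in every bin. At 2 UMIs, Ccl3 was at 1015 CPM in JQF against 808 and 677 CPM in HFD replicates 1 and 2. At 3 UMIs it was at 966 against 396 and 747 CPM. Gzmb at 2 UMIs was at 462 against 578 and 438 CPM, and Ctla4 at 180 against 181 and 735 CPM. At 8 or more UMIs, where JQF had 8 cells, its Tcf7 level of 14.1 CPM lay between the 10.4 and 17.0 CPM of HFD, while Il7r was at 84.8 against 20.2 and 34.7 CPM.

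**Figure D5:**
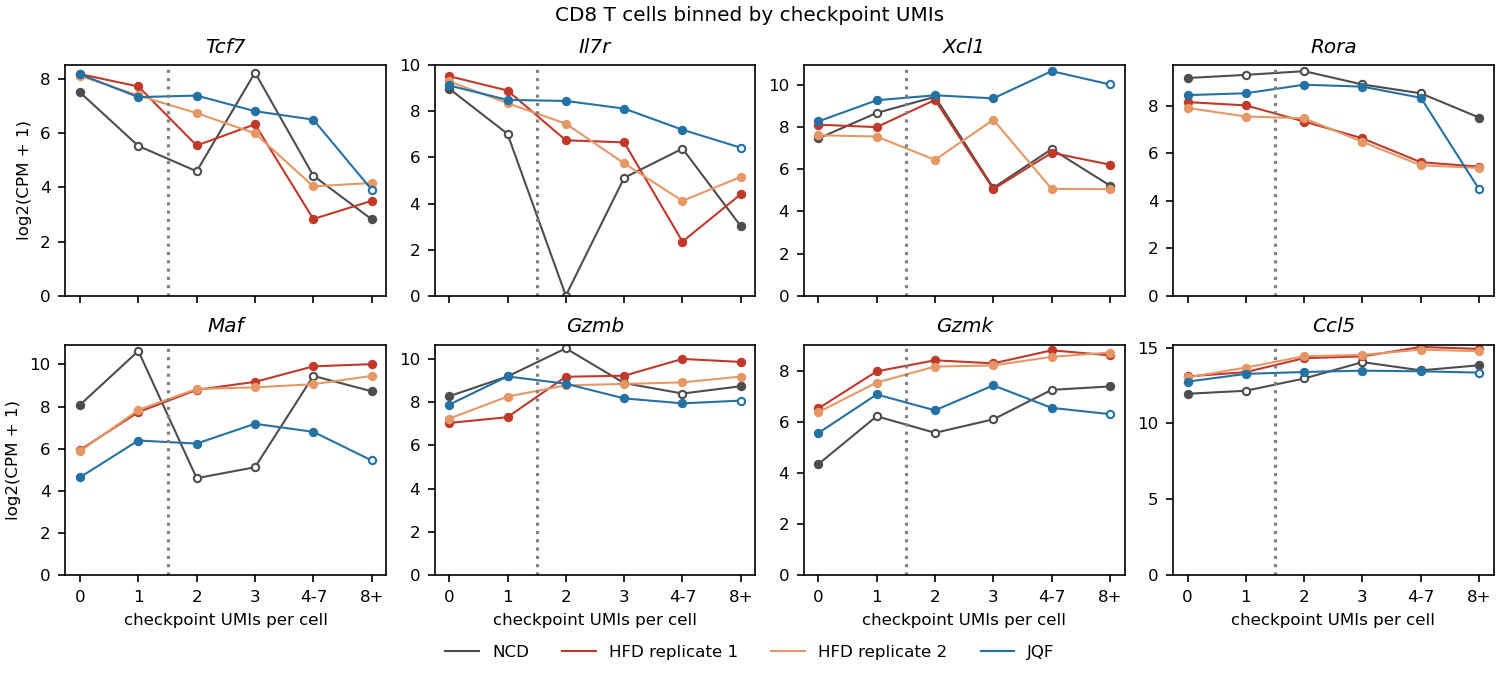
Each panel plots a gene as log2(CPM + 1) against the summed Pdcd1, Lag3 and Havcr2 UMIs of the CD8 T cells, with a line for each library, cells pooled within a bin, open points for bins under 20 cells and the dotted line at the threshold of the rule. At 4 to 7 UMIs, Il7r was at 147 CPM in JQF against 4.09 and 16.3 CPM in HFD, and Ccl5 at 11130 against 33912 and 30103 CPM.

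Whether the state differed by group was tested as an interaction, the difference between checkpoint-high and checkpoint-negative cells in JQF against that in HFD. With edgeR 247 of 10436 genes (2.37%) passed, 184 with a higher difference in JQF (1.76%) and 63 with a lower one (0.604%). The difference is signed, checkpoint-high minus checkpoint-negative, so that a smaller fall counts as higher. Without cells with myeloid UMIs, 70 genes passed, 59 higher and 11 lower, and without cells of any other type 31, 29 higher and 2 lower. Cd74, a gene of antigen-presenting cells, was at 1514 CPM in checkpoint-high and 40.3 CPM in checkpoint-negative cells of JQF. In HFD replicates 1 and 2 it was at 893 against 195 and 691 against 428 CPM. NK and gamma-delta T cell genes summed to 423 and 236 CPM in checkpoint-high and 145 and 61.0 CPM in checkpoint-negative cells of JQF. The part of other cells, or of their RNA, in these calls was not tested. Tcf7 and Il7r, lower in checkpoint-high cells of every library, were less so in JQF, by 2.20 (SE 0.25, edgeR adjusted p = 0.00156) and 2.88 (SE 0.24, edgeR adjusted p = 0.000287). Xcl1 was higher in checkpoint-high than in checkpoint-negative cells in JQF alone, 1087 against 310 CPM, and the reverse held in NCD and both HFD libraries (interaction 3.17, SE 0.30, edgeR adjusted p = 0.000576). In JQF, 60.8% of checkpoint-high cells held an Xcl1 UMI, against 7.65% to 14.8% in the other libraries, and 3 cells held 47.9% of its UMIs. Emb, Il12rb2 and Il18r1, a chain of the IL-18 receptor, had interactions of 3.46 (SE 0.25, edgeR adjusted p = 0.000158), 3.30 (SE 0.34, edgeR adjusted p = 0.000905) and 3.29 (SE 0.26, edgeR adjusted p = 0.000209). Il12rb2 was lower in checkpoint-high than in checkpoint-negative cells of every library. Emb was lower in NCD and both HFD libraries and at 915 against 862 CPM in JQF.

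The rise of effector and exhaustion genes was smaller in JQF for Ctla4 (-1.46, SE 0.22, edgeR adjusted p = 0.00734), Maf (-1.69, SE 0.28, edgeR adjusted p = 0.00967), Ccl3 (-1.69, SE 0.24, edgeR adjusted p = 0.00568), Ccl5 (-1.08, SE 0.12, edgeR adjusted p = 0.00124), Gzmb (-1.81, SE 0.32, edgeR adjusted p = 0.0145) and Adgrg1 (-3.76, SE 0.60, edgeR adjusted p = 0.00916). Of the exhaustion regulators 4 of 17 had a lower difference in JQF and 0 a higher one (median -0.54, all genes 0.016), and of NK-type receptors 4 of 11 had a higher one and 0 a lower (median 1.97). Naive and progenitor genes had 2 of 14 higher (median 0.91). Ctla4, Ccl3, Gzmb and Adgrg1 did not pass without cells holding myeloid UMIs (edgeR adjusted p from 0.0515 to 0.231), at interactions of -1.40, -1.68, -1.74 and -3.11. Adgrg1 also lost its call without predicted doublets (edgeR adjusted p = 0.0621) and Gzmb without scaling (edgeR adjusted p = 0.0631). With 3 or more receptor UMIs a cell 1 gene passed, Xcl1 keeping its call alone of the 12. The interactions were then 2.08 for Tcf7, 2.85 for Il7r, 3.82 for Emb, 3.33 for Il12rb2, 3.52 for Il18r1, -1.59 for Maf and -1.11 for Ccl5, with edgeR adjusted p from 0.0598 to 0.170. Thinned to 2000 UMIs, Tcf7, Ctla4, Maf, Gzmb and Adgrg1 did not pass (edgeR adjusted p from 0.103 to 0.942). The thinned interaction of Ctla4 was -0.15, and those of Tcf7, Maf, Gzmb and Adgrg1 were 2.61, -1.37, -1.24 and -7.38.

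The interaction of HFD against NCD called 236 of 10436 genes with edgeR (2.26%), 145 higher in HFD (1.39%) and 91 lower (0.872%). NK-type receptors had 5 of 11 lower and 2 higher (median -1.06, all genes -0.025). Klre1 was at 359 CPM in checkpoint-high against 81.6 in checkpoint-negative cells in NCD and lower in checkpoint-high cells in both HFD libraries, at 31.4 against 84.3 and 19.1 against 96.7 CPM (interaction -3.98, SE 0.35, edgeR adjusted p = 0.000350). Klrk1 and Klrc1 had interactions of -2.69 (SE 0.25, edgeR adjusted p = 0.000422) and -3.71 (SE 0.56, edgeR adjusted p = 0.00777). Spp1, which encodes osteopontin, was at 386, 11.0 and 18.4 CPM in checkpoint-high cells of NCD, HFD replicate 1 and HFD replicate 2, and Tnfsf4, which encodes the OX40 ligand, at 337, 26.2 and 28.9 CPM. Both had 0 UMIs in the checkpoint-negative cells of NCD, so their fitted interactions are no measure of size. Both lost their call without cells with myeloid, endothelial, erythroid or neutrophil UMIs (edgeR adjusted p = 0.118). Klrc1 lost its call in edgeR without cells holding myeloid UMIs (adjusted p = 0.0642), without cells of any other type (0.143), without scaling beyond library totals (0.0520) and with at least 3 receptor UMIs (0.139), at interactions of -3.56 to -3.80. Among the genes with a higher difference in HFD were the macrophage genes C1qb (8.02, SE 1.78, edgeR adjusted p = 0.0438) and Lyz2 (7.04, SE 1.08, edgeR adjusted p = 0.00844). Macrophage and monocyte genes summed to 12.4 CPM in checkpoint-high and 399.6 CPM in checkpoint-negative cells of NCD. Without cells holding other cells' transcripts, 16 genes passed in edgeR, 4 higher and 12 lower in HFD.

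The 2 HFD libraries were alike in most genes of these cells. Of 3475 genes with a mean of at least 50 CPM, 59 (1.70%) differed by 2-fold or more. The V, D and J genes of the antigen receptors, Xist and Y chromosome genes were left out of this count. Those highest in replicate 2 against replicate 1 were the stomach secretory genes Gkn2, Gkn1, Tff1 and Tff2, the haemoglobin genes Hbb-bs, Hbb-bt, Hba-a1 and Hba-a2, and the keratin genes Krt19 and Krt8. Gkn2 had 4785 UMIs in replicate 2 and 0 in replicate 1. Of these UMIs, 93.4% were in 3 cells, but 34.9% of the cells of replicate 2 held one, and its checkpoint-negative cells held Gkn2 at 70.6 CPM. Hbb-bs had 99.5% of its UMIs in 3 cells and a UMI in 4.07% of cells. Among those higher in replicate 1 were Trbc1, at 674 against 265 CPM with a UMI in 82.8% against 15.0% of cells, the interferon-stimulated genes Ifih1 (271 against 102 CPM) and Ifit1bl1 (88.0 against 25.3 CPM), and Xcl1 (142 against 55.8 CPM).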

How the data were processed

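Single-cell RNA was measured in 4 mouse liver libraries, 1 of NCD, 2 of HFD and 1 of JQF, grouped by the sample titles. The authors deposited raw UMI counts per gene and called barcode from 10x Genomics 3' libraries, made with Cell Ranger (7.0.0 in the header of the filtered matrices, 4 in that of other matrices not used here, 6.0.1 in the submitters' processing notes, which also list Seurat 4.0.3) and the mouse build mm10. Whether intronic reads were counted is not given in the sources used here. The called barcodes of NCD, HFD replicate 1, HFD replicate 2 and JQF numbered 7254, 7554, 10943 and 8995. After at least 500 genes and at most 20% mitochondrial UMIs were required, 5975, 6516, 10259 and 8540 cells remained, with 94141456, 67615639, 108062769 and 104594121 UMIs.

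Members and gene lists were chosen with earlier results of these data known. Counts were summed per library and cell state and tested with edgeR 4.0.16 in R 4.3.3 (quasi-likelihood test, TMM scaling, filterByExpr, Benjamini-Hochberg adjustment over all genes tested, threshold 0.05), with a floor of 10 cells a sum. In the comparisons with other T cells and in the interactions, the genes of the rule left the table after library sizes were set. In the comparisons between groups within checkpoint-high cells they stayed in the table, the adjustment and the counts of calls. Outside the lists, the 10 genes per direction with the largest fold change among those called, with a mean of at least 50 CPM and the same direction in every library, could be named, and where none was called the 5 largest. Antigen receptor V, D and J genes, Xist and Y chromosome genes could not be named in this way. CPM are UMIs of a gene per 1000000 UMIs of its sum, and log2 fold changes are edgeR's. Shares have 95% exact intervals, for counting error only, and a count of 0 allows 3 counts. Doublets were predicted with Scrublet in scanpy 1.11.5, taking the highest scores at 0.8% per 1000 barcodes, because its own threshold marked 0.0117% to 3.02% of cells, and were kept except in an alternative. Alternatives were DESeq2 1.42.0, no scaling, no filter, no doublets, no cells with 3 myeloid UMIs, 3 receptor UMIs, thinning to 2000 UMIs and leaving out libraries. Leaving out cells with endothelial, erythroid or neutrophil UMIs as well, thinned shares of CD8 T cells and the corrected number of V genes were chosen after seeing the data. Scripts were tested on simulated data. V exon sequences are from GENCODE M21 on GRCm38, in which 32158 of 32285 listed genes matched.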

Additional observations from a re-analysis of the deposited data

Results flagged for a closer look

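Effects that differed between groups under the same contrast, by an interaction term in edgeR over the 8 sums of checkpoint-high and checkpoint-negative CD8 T cells, numbered 247 genes for JQF against HFD and 236 for HFD against NCD. The residual spread of both comes from the HFD pair, and both use the HFD libraries.

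For JQF against HFD, the signed log2 difference, checkpoint-high minus checkpoint-negative, was higher in JQF for Tcf7 by 2.20, Il7r by 2.88, Xcl1 by 3.17, Emb by 3.46, Il12rb2 by 3.30 and Il18r1 by 3.29. It was lower for Ctla4 at -1.46, Maf at -1.69, Ccl3 at -1.69, Ccl5 at -1.08, Gzmb at -1.81 and Adgrg1 at -3.76. Macrophage and monocyte genes stood at 608 CPM in checkpoint-high and 136 CPM in checkpoint-negative cells of JQF, and at 530 against 132 and 782 against 764 CPM in HFD replicates 1 and 2. In the same order, NK cell genes stood at 423 against 145, 333 against 167 and 300 against 268 CPM. Gamma-delta T cell genes stood at 236 against 61.0, 31.4 against 48.2 and 76.1 against 42.3 CPM. Neutrophil genes stood at 235 against 15.1, 87.7 against 78.3 and 51.0 against 96.7 CPM. The part of such cells in these values was not tested. Adgrg1 was one of 2 genes that earlier results of these data had singled out as raised in T cells of HFD, so its value is no further support.

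For HFD against NCD, the signed difference was lower in HFD for Klre1 at -3.98, Klrc1 at -3.71, Klrk1 at -2.69, Spp1 at -12.9 and Tnfsf4 at -11.3. Spp1 and Tnfsf4 had 0 UMIs in the checkpoint-negative cells of NCD, so these fitted values depend on the prior count and are no bound. Endothelial genes stood at 1066 and 680 CPM and macrophage and monocyte genes at 12.4 and 399.6 CPM in checkpoint-high and checkpoint-negative cells of NCD, and their part in these values was not tested.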

How the results depend on the processing

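Of the checkpoint-high share, the ratio of HFD to NCD was 2.56 among T cells, 4.81 among kept cells, 1.29 among CD8 T cells, 1.67 among T cells thinned to 2000 UMIs and 0.854, reversed, among thinned CD8 T cells. The rule was run again on the thinned counts. Of the 63 thinned NCD cells that met it, 42 had done so before, a smaller part than in any other library. The ratio of JQF to HFD was 0.134, and 0.234, 0.360 and 0.0512 among kept cells, CD8 T cells and thinned T cells, and 0.0976 with at least 3 receptor UMIs. Counts of genes called moved more. Any other type stands here for cells with myeloid, endothelial, erythroid or neutrophil UMIs alone. Between checkpoint-high cells of HFD and NCD, 738 became 359 with DESeq2, 1141 without scaling beyond library totals, 2620 without the filter on low counts, 1327 without cells with myeloid UMIs, 407 with at least 3 receptor UMIs and 66 when thinned, and the share higher in HFD, 27.9%, became 51.1% without the filter and 10.6% when thinned. Between JQF and HFD, 23 became 138 with DESeq2, 143 without scaling, 1027 without the filter, 260 without doublets, 275 without myeloid cells, 401 without cells of any other type, 3 with at least 3 receptor UMIs and 1 when thinned, and the 100% higher in JQF became 79.0% without scaling and 61.0% without the filter. Against checkpoint-negative cells, 1196 became 707 when thinned and 93 to 1429 with one library left out. Against CD4 T cells, 96 became 241 with DESeq2, 590 without the filter, 148 without doublets, 170 without myeloid cells and 211 without cells of any other type, and 20 to 132 with one library left out. The interaction of JQF with HFD, 247, became 37 with DESeq2, 101 without scaling, 641 without the filter, 70 without myeloid cells, 31 without any other type, 1 with at least 3 receptor UMIs and 24 when thinned. That of HFD with NCD, 236, became 46, 88, 647, 60, 16, 18 and 68 in the same order and 127 without doublets, and its share with a higher difference in HFD, 61.4%, became 25.0% without any other type. The causes were not tested. Between JQF and HFD, Il1b reversed to -0.49 when thinned, -0.43 without myeloid cells and -0.30 without any other type. With DESeq2, Kdr, Dlc1 and Cd101 lost their calls between HFD and NCD, at log2 fold changes of -6.38, -8.07 and 1.63. With at least 3 receptor UMIs Gzmk, Cxcr3, Cd101 and Nr4a3 did, at 1.33, 3.10, 1.69 and -2.15. Spp1 and Tnfsf4 lost their interaction when thinned, with at least 3 receptor UMIs and without any other type. Over the named genes, 846 alternative values counted as the same. Where tested, these kept direction and side of the threshold, and where untested they stayed within the SE of the main value. A further 117 lost the call, 32 gained it, 36 untested ones moved by more than the SE and 3 reversed. Thinning against CD4 T cells was not run, because too few cells were left for a sum. No paired analysis was possible because the diet groups share fewer than 2 replicate numbers, while the states of a library were compared with the library as a block. Only 13.6% to 52.8% of checkpoint-high cells could be assigned a V alpha gene, which limits the V gene values, and a single library in NCD and JQF limits every group comparison.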
